A study of Mus musculus with 14 samples.

Results

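The FOXO target genes described here are 10 genes whose mouse or human versions are classical targets of FOXO transcription factors. They were taken by name, with earlier results of these data known: Pdk4, Txnip, Insr, Irs2, Sesn1, Sesn3, Gadd45a, Ccng2, Bcl2l11 and Bcl6. All 10 were present among the 41204 genes of the poly(A) RNA-seq table, and all 10 were among the 15430 genes with a mean above 0.2 FPKM (fragments scaled to transcript length and sequencing depth) that were tested. The 8 samples were mouse embryonic stem cells (ESCs) of C57BL/6(F) x 129/sv(M) background, labelled with a developmental stage of 3.5 days, in 4 groups of 2. Wild-type and Trincr1-/- ESCs were each grown in 2i+LIF, which is N2B27 medium with 1.0 μM of the MEK inhibitor PD0325901, 3.0 μM of the GSK3 inhibitor CHIR99021 and leukemia inhibitory factor (LIF) at 1000 units per ml, or in PD+LIF, which leaves out CHIR99021. Cells of the PD+LIF groups spent 24 h in 2i+LIF and then 4 days in PD+LIF, so the MEK inhibitor was present in every group. Trincr1 (Gm2694 in the table) is a long noncoding RNA, and the study deleted its shared last exons with a pair of CRISPR guides. The sources used here do not say which knockout line was sequenced, nor whether the replicates were separate cultures. P-values therefore measure the spread between these samples, which may be technical. If all knockout samples came from the same line, a difference between lines cannot be told apart from the loss of Trincr1.

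FOXO proteins are forkhead transcription factors held in check by insulin and growth factor signalling. When PI3K is active, AKT and the related kinase SGK1 phosphorylate FOXO proteins, which are then kept out of the nucleus, and when the signal drops they return to the nucleus and switch on genes for fuel choice, stress resistance, cell cycle arrest and cell death. Several targets feed back on the pathway itself, since the insulin receptor and its adaptor IRS2 are FOXO targets, and in ESCs FOXO1 has been linked to the expression of pluripotency genes. GSK3, the kinase blocked by CHIR99021, is itself a substrate of AKT.

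Trincr1 itself was measured first, as a check of the labels. Its level was 5.70 and 9.45 FPKM in wild-type ESCs in 2i+LIF and 6.18 and 6.56 FPKM in PD+LIF. In Trincr1-/- ESCs it was 0.0754 and 0 FPKM in 2i+LIF, and 1.38 and 0.746 FPKM in PD+LIF, where 16.7% of the wild-type mean remained. The knockout samples lay below the wild-type samples in both media.

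Promoter sequence is shown for the 4 genes that differed between genotypes in PD+LIF and for Bcl2l11, because the best known feature of a FOXO target is a short forkhead site. RefSeq promoters on GRCm38.p6, running from 250 bases before to 50 bases after the transcription start, were matched by symbol for 9 of the 10 genes, in 12 windows. Both strands were searched for GTAAACA, the core FOXO site (reverse TGTTTAC), and for CAAAACA, the insulin response form (reverse TGTTTTG). Capitals in the 250 bases before the start mark a match.

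Txnip: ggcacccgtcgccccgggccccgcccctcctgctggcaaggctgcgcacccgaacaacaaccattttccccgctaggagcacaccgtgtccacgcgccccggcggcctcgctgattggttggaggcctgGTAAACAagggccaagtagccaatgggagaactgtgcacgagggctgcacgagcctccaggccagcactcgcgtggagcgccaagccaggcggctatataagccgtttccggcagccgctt
Pdk4: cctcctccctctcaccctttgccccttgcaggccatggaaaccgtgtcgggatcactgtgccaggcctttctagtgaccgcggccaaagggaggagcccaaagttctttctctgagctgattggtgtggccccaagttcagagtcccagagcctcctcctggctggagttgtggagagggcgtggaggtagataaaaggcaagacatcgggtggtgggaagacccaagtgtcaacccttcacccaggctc
Irs2: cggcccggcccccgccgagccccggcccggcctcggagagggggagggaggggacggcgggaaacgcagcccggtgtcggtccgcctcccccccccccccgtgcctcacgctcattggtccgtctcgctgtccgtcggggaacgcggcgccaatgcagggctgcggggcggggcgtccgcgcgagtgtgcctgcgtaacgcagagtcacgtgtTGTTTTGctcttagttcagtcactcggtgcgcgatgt
Gadd45a: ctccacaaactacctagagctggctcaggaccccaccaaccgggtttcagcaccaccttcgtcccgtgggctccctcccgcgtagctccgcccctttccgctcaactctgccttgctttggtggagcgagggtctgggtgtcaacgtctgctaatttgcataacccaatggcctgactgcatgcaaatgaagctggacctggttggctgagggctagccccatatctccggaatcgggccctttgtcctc
Bcl2l11: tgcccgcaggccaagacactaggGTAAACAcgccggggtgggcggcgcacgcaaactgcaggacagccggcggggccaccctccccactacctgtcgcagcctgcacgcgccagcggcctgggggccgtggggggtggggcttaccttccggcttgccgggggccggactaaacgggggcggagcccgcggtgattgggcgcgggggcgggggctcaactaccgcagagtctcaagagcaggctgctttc

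These stretches are chr3:96557707-96557956 on the plus strand for Txnip, chr6:5496279-5496528 on the minus strand for Pdk4, chr8:11008930-11009179 on the minus strand for Irs2, chr6:67037408-67037657 on the minus strand for Gadd45a and chr2:128125788-128126037 on the plus strand for Bcl2l11. GTAAACA stood 121 bases before the start of Txnip and 227 bases before a start of Bcl2l11. Its reverse stood 22 bases past a start of Sesn1, so that 3 of the 12 windows held the site. CAAAACA was found in 2 of the 12 windows, 16 bases before the start of Ccng2 and, as TGTTTTG, 37 bases before that of Irs2. Of all 32851 promoter windows, 3.65% held GTAAACA and 6.28% held CAAAACA, on either strand. The windows of Pdk4, Gadd45a, Sesn3 and Bcl6 held neither word, and nor did a further window of Bcl2l11 or a further window of Sesn1. A match is a string of letters in a short window and says nothing of binding, and FOXO sites can lie far outside it.

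The genes covered a wide range of expression, with Txnip highest at a mean of 59.7 FPKM over the 8 samples, above 90.7% of the genes tested, and Gadd45a next at 24.6 FPKM. Sesn3 (8.84 FPKM), Irs2 (8.64), Sesn1 (6.77), Bcl2l11 (6.39), Ccng2 (4.80) and Insr (3.39) followed. Pdk4 at 1.66 FPKM and Bcl6 at 1.35 FPKM were lowest, above 28.5% and 25.6% of the genes tested, and rested on an estimated 26.0 to 155 and 38.0 to 77.3 fragments per sample. Sample depth, estimated from the steps between low values, was 10.3 to 14.1 M fragments, at which 1 fragment on 1000 bases is worth 0.071 to 0.0974 FPKM.

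**Figure D1:**
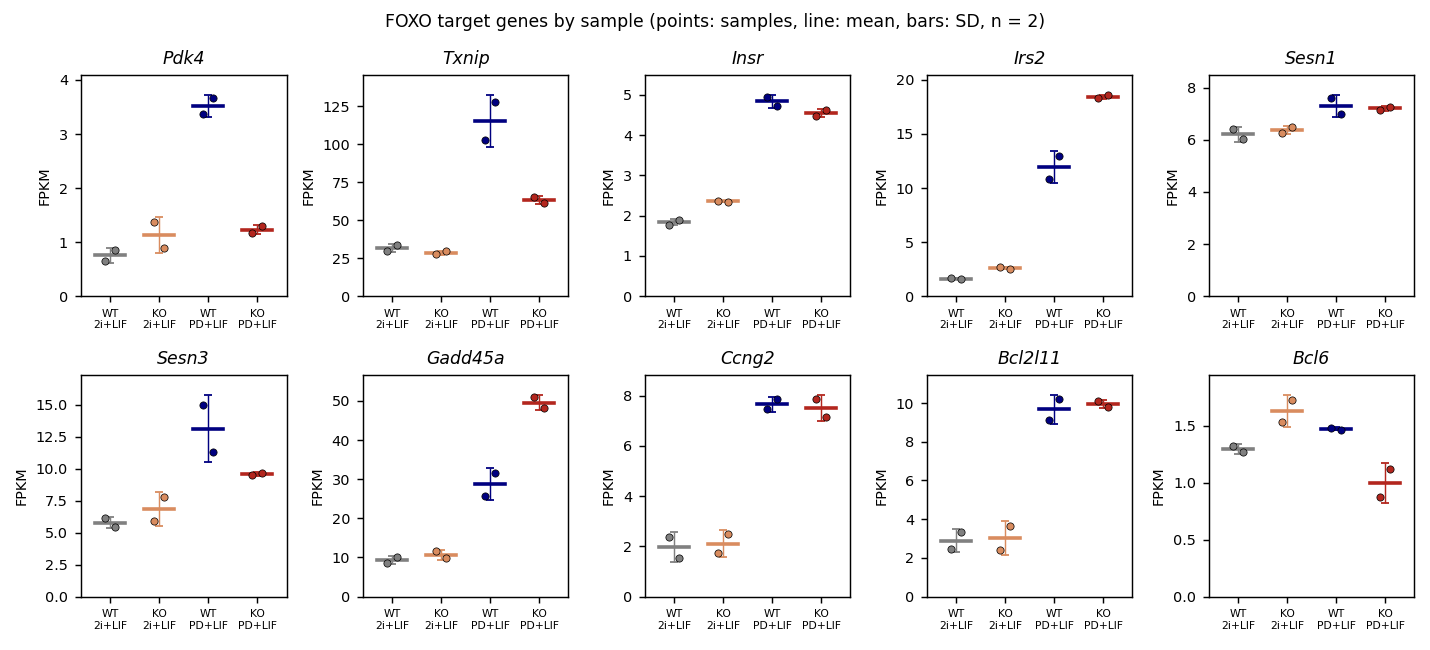
FPKM of the 10 FOXO target genes in each of the 8 samples, 1 panel a gene with its own axis from 0, as points with the mean (line) and SD (bars) of the 2 samples of each group. In PD+LIF, Pdk4 and Txnip lie lower and Gadd45a and Irs2 higher in the knockout than in wild type, while Bcl2l11 and Ccng2 move mainly with the medium.

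The first comparison set Trincr1-/- against wild-type ESCs for these genes in PD+LIF, where the ESCs do not have the GSK3 inhibitor. The genes did not move together. Pdk4 and Txnip, both brakes on glucose use, were lower in Trincr1-/- ESCs, whereas Gadd45a and Irs2 were higher. These 4 of 10 passed a limma adjusted p of 0.05 (Benjamini-Hochberg over all genes tested), beside 12.1% of all genes tested, of which 6.29% were higher and 5.77% lower. The median log2 fold change of the 10 genes was -0.05, against 0.01 for all genes tested, on the log2(FPKM + 1) scale used for every fold change here.

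Pdk4 encodes pyruvate dehydrogenase kinase 4, which shuts off the entry of pyruvate into the TCA cycle. It lies at chr6:5483351-5496309 of GRCm38. In PD+LIF its level was 3.37 and 3.67 FPKM in wild-type ESCs and 1.17 and 1.30 FPKM in Trincr1-/- ESCs. Both knockout samples were below both wild-type samples, at 35.1% of the wild-type mean (1.23 ± 0.0919 against 3.52 ± 0.209 FPKM, SD, n = 2). The log2 fold change was -1.02 (SE 0.15, limma adjusted p = 0.00839). The adjusted p passed the threshold in the fit of all samples but was 0.0506 without replicate 2 of wild type and 0.0652 without replicate 1 of the knockout in PD+LIF, with fold changes of -0.97 in both.

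Txnip encodes thioredoxin-interacting protein, which binds thioredoxin and limits glucose uptake. The gene, at chr3:96557957-96561883, overlaps the transcript Gm15441, which stayed at or below 0.809 FPKM in every sample. Txnip was at 103.0 and 127.4 FPKM in wild-type ESCs in PD+LIF and at 65.0 and 61.5 FPKM in Trincr1-/- ESCs. The wild-type samples were well above the knockout samples, although they also differed from each other by more than the samples of any other group. The knockout mean was 54.9% of the wild-type mean (63.3 ± 2.52 against 115.2 ± 17.3 FPKM, SD, n = 2), with a log2 fold change of -0.85 (SE 0.10, limma adjusted p = 0.00523). Txnip kept its call when any 1 sample was left out, and its adjusted p was 0.0535 when only the 4 PD+LIF samples were fitted.

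Gadd45a, at chr6:67035096-67037457, encodes a stress protein linked to growth arrest and DNA repair, and overlaps the transcript E230016M11Rik, which reached at most 1.46 FPKM. Its level was 25.8 and 31.6 FPKM in wild-type ESCs in PD+LIF and 51.0 and 48.2 FPKM in Trincr1-/- ESCs. The groups did not overlap, and the knockout mean was 1.73 times the wild-type mean (49.6 ± 1.96 against 28.7 ± 4.10 FPKM, SD, n = 2). The log2 fold change was 0.77 (SE 0.12, limma adjusted p = 0.0114). Its call was lost without replicate 1 of wild type (0.63, adjusted p = 0.0687), without replicate 1 of the knockout (0.73, adjusted p = 0.0898) and without replicate 2 of the knockout (0.81, adjusted p = 0.0546).

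Irs2 encodes the adaptor that carries the signal from the insulin and IGF1 receptors to PI3K, and lies at chr8:10986980-11008458. In PD+LIF it was at 10.9 and 13.0 FPKM in wild-type ESCs and at 18.3 and 18.6 FPKM in Trincr1-/- ESCs. Both knockout samples were higher, and their mean was 1.55 times that of wild type (18.4 ± 0.193 against 11.9 ± 1.49 FPKM, SD, n = 2). The log2 fold change was 0.60 (SE 0.10, limma adjusted p = 0.0154). As for Gadd45a, the call was lost without replicate 1 of wild type (0.48, adjusted p = 0.0784), replicate 1 of the knockout (0.61, adjusted p = 0.0948) or replicate 2 of the knockout (0.59, adjusted p = 0.0757).

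The other 6 genes did not pass in PD+LIF. Sesn3, a sestrin that restrains mTORC1, was at 15.0 and 11.3 FPKM in wild-type ESCs and at 9.48 and 9.70 FPKM in the knockout. Bcl6, a transcriptional repressor, was at 1.48 and 1.46 FPKM in wild-type ESCs and at 0.872 and 1.12 FPKM in the knockout. For both, the knockout samples lay below the wild-type samples, with log2 fold changes of -0.40 for Sesn3 (95% confidence interval -0.78 to -0.03, limma adjusted p = 0.148) and -0.31 for Bcl6 (-0.59 to -0.03, limma adjusted p = 0.144).

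Insr, the insulin receptor, was at 4.96 and 4.73 FPKM in wild-type ESCs and at 4.48 and 4.62 FPKM in the knockout, a log2 fold change of -0.08 (95% confidence interval -0.31 to 0.16, limma adjusted p = 0.673). Bcl2l11, which encodes the pro-apoptotic protein BIM, had a log2 fold change of 0.04 (-0.37 to 0.45), Ccng2, an atypical cyclin linked to cell cycle exit, one of -0.03 (-0.44 to 0.38), and Sesn1, the other sestrin, one of -0.02 (-0.22 to 0.19). The direction of these last 3 values changed when single samples were left out.

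**Figure D2:**
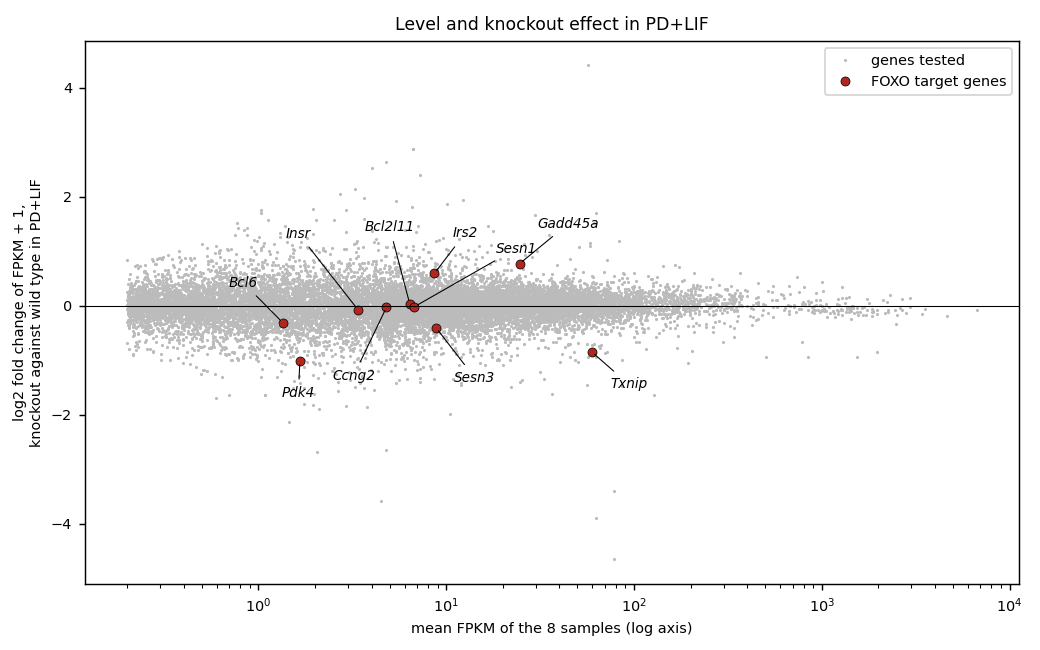
Mean FPKM over the 8 samples (log axis) against the log2 fold change of FPKM + 1 between Trincr1-/- and wild-type ESCs in PD+LIF, for the 15430 genes tested (grey) and the 10 FOXO target genes (red). Pdk4 (-1.02) and Txnip (-0.85) lie below and Gadd45a (0.77) and Irs2 (0.60) above 0, at levels from 1.66 to 59.7 FPKM.

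Markers of cell state moved in the same comparison. The 10 ESC markers were all expressed in every sample. Of these, 6 were lower and 0 higher in the knockout in PD+LIF, beside 5.77% and 6.29% of all genes tested. Their summed level in PD+LIF ran from 2938 to 3239 FPKM for wild type and from 1963 to 2165 FPKM for the knockout. Much of the sum was Dppa5a, with means of 1753 and 922 FPKM, and the other 9 markers summed to 1329 to 1341 FPKM for wild type and 1141 to 1143 FPKM for the knockout. Klf4 (29.4 and 34.3 FPKM) and Tdgf1 (131.6 and 141.1 FPKM) had higher means in the knockout without passing. The 4 neural markers found in the table summed to 29.8 to 33.7 FPKM in wild-type and to 38.9 FPKM in both knockout samples, and 1 of the 4, Sox1, was higher (4.87 and 9.26 FPKM, limma adjusted p = 0.00998). Pax6 (9.85 and 13.2 FPKM), Nes (14.3 and 15.2 FPKM) and Neurod1 did not pass, the last at 2.09 and 3.41 FPKM in wild type and lower, at 1.42 and 0.979 FPKM, in the knockout samples. The 8 fibroblast markers summed to 4.47 to 4.92 and 5.93 to 6.87 FPKM, and of the 4 tested, Col1a1 was higher (0.409 and 1.89 FPKM, limma adjusted p = 0.0037). Of the 8, 6 stayed under 1 FPKM in every sample, and Dcn was at most at 0.0539 FPKM. Endoderm markers summed to 2.55 to 3.12 and 3.68 to 4.72 FPKM, and 1 of the 2 tested, Foxa2, was higher (0.436 and 1.68 FPKM, limma adjusted p = 0.0182). Mesoderm markers summed to 1.63 to 1.96 and 1.36 to 1.40 FPKM, and 0 of the 3 tested were called in limma. Of the 3, 1 had an unadjusted limma p under 0.05, Eomes (1.54 and 0.883 FPKM), beside 28.5% of all genes tested. In these bulk samples, fewer cells of a kind and less RNA per cell cannot be told apart, and the part of these shifts in the 4 calls was not tested.

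In 2i+LIF, 0 of the 10 genes passed in limma, beside 1.21% of all genes tested, of which 0.35% were higher and 0.855% lower. An unadjusted p under 0.05 was reached by 2 of them, Irs2 and Insr, beside 14.6% of all genes tested. Irs2 was at 1.67 and 1.58 FPKM in wild-type ESCs and at 2.66 and 2.53 FPKM in the knockout, with a log2 fold change of 0.46 (SE 0.10, limma adjusted p = 0.110). Both Irs2 samples of the knockout were above both wild-type samples, as in PD+LIF, and the change in Irs2 did not differ detectably between media (a difference of 0.14, 95% confidence interval -0.21 to 0.48, limma adjusted p = 0.658). Insr was at 1.78 and 1.89 FPKM in wild-type ESCs and at 2.37 and 2.34 FPKM in the knockout (log2 fold change 0.24, limma adjusted p = 0.318), again without overlap of the groups.

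Pdk4 in 2i+LIF was at 0.657 and 0.856 FPKM in wild-type ESCs and at 1.37 and 0.894 FPKM in the knockout. The knockout samples were here the higher ones, by a log2 fold change of 0.27 (95% confidence interval -0.07 to 0.62, limma adjusted p = 0.459). Txnip was at 29.8 and 33.5 FPKM in wild-type ESCs and at 27.5 and 29.5 FPKM in the knockout, a log2 fold change of -0.15 (-0.39 to 0.10, limma adjusted p = 0.593). Gadd45a was at 8.51 and 10.1 FPKM against 11.6 and 9.81 FPKM, with groups that overlapped and a log2 fold change of 0.19 (-0.11 to 0.48, limma adjusted p = 0.557).

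The remaining genes in 2i+LIF had log2 fold changes of 0.20 for Sesn3 (-0.17 to 0.58), 0.20 for Bcl6 (-0.09 to 0.48), 0.07 for Ccng2 (-0.34 to 0.48), 0.04 for Bcl2l11 (-0.37 to 0.44) and 0.03 for Sesn1 (-0.17 to 0.23). Sesn1 was at 6.26 and 6.47 FPKM in the knockout in 2i+LIF and at 7.14 and 7.27 FPKM in PD+LIF.

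The difference of the knockout effect between media passed for 1 of the 10 genes, beside 1.81% of all genes tested. For Pdk4 the effect in PD+LIF was lower than that in 2i+LIF by a log2 difference of -1.29 (SE 0.21, limma adjusted p = 0.0368). This call was lost when any 1 of the 8 samples was left out, where the adjusted p ranged from 0.0809 to 0.131 and the difference from -1.45 to -1.13. Txnip (-0.70, limma adjusted p = 0.0676), Gadd45a (0.59, 0.140), Sesn3 (-0.61, 0.209) and Bcl6 (-0.50, 0.175) did not pass.

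**Figure D3:**
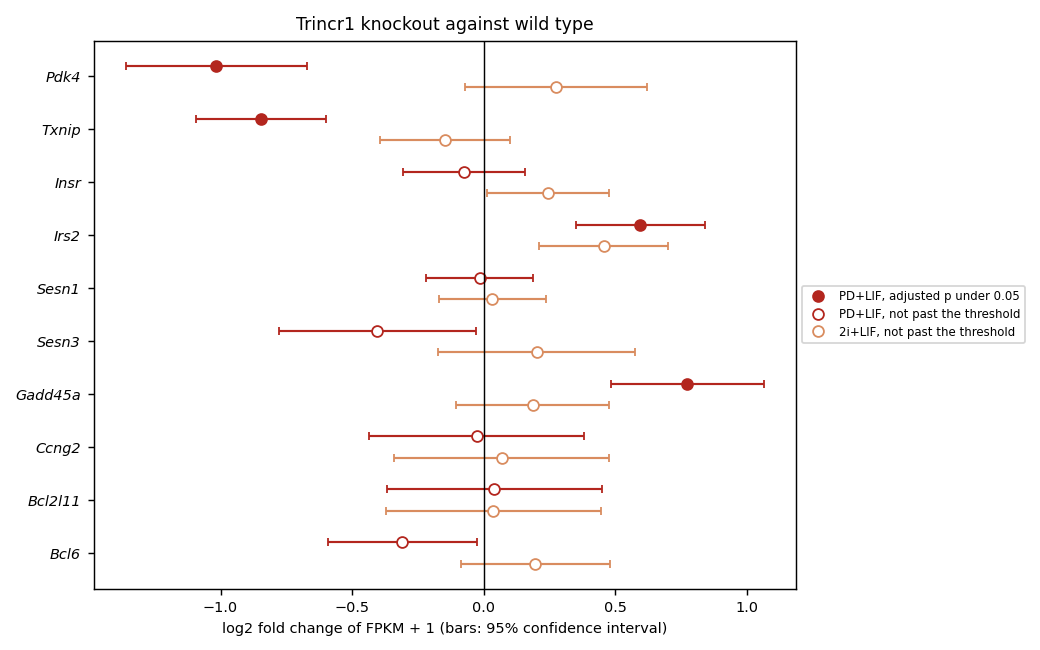
Log2 fold change of FPKM + 1 between Trincr1-/- and wild-type ESCs for each FOXO target gene in PD+LIF (red) and 2i+LIF (orange), with 95% confidence intervals. Filled points have a limma adjusted p under 0.05, which holds for Pdk4, Txnip, Irs2 and Gadd45a in PD+LIF and for no gene in 2i+LIF.

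The second question was how the genes differed between PD+LIF and 2i+LIF within a genotype. In wild-type ESCs, 8 of the 10 genes were higher in PD+LIF and 0 lower, beside 30.9% of all genes tested that were higher, 21.3% that were lower and 52.2% called in either direction. The median log2 fold change of the 10 genes was 1.41, against 0.08 for all genes tested. The genes were chosen with earlier results of these data known, so these shares describe them and are no test of the set. The 8 genes included the insulin receptor and its adaptor (Insr, Irs2), both metabolic brakes (Pdk4, Txnip), Sesn3, the growth arrest genes Gadd45a and Ccng2, and Bcl2l11.

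Irs2 showed the steepest change of the 10, from 1.67 and 1.58 FPKM in 2i+LIF to 10.9 and 13.0 FPKM in PD+LIF, a 7.34-fold ratio of means (log2 fold change 2.29, SE 0.10, limma adjusted p = 8.85e-06). Pdk4 rose from 0.657 and 0.856 to 3.37 and 3.67 FPKM, a 4.65-fold ratio (log2 fold change 1.36, SE 0.15, limma adjusted p = 0.000268). Every PD+LIF sample of these genes was above every 2i+LIF sample. Ccng2 was at 2.38 and 1.55 FPKM in 2i+LIF and at 7.44 and 7.86 FPKM in PD+LIF (3.89-fold), and Bcl2l11 at 2.46 and 3.33 FPKM against 9.15 and 10.2 FPKM (3.34-fold). Txnip rose 3.64-fold, Gadd45a 3.09-fold, Insr 2.64-fold and Sesn3 2.27-fold, with limma adjusted p-values from 1.95e-05 for Txnip to 0.00131 for Sesn3. Sesn1 was at 6.40 and 6.01 FPKM against 7.60 and 7.00 FPKM (log2 fold change 0.20, limma adjusted p = 0.0847) and Bcl6 at 1.32 and 1.27 against 1.48 and 1.46 FPKM (0.11, limma adjusted p = 0.490), so neither passed. The same 8 genes passed under each alternative setting that was run.

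In Trincr1-/- ESCs, 6 of the 10 genes were higher in PD+LIF and 1 was lower, beside 29.6% and 20.3% of all genes tested and 50.0% called in either direction. The median was 0.92 for the 10 genes and 0.07 for all genes tested. Irs2 was at 2.66 and 2.53 FPKM in 2i+LIF and at 18.3 and 18.6 FPKM in PD+LIF (7.10-fold, log2 fold change 2.43, limma adjusted p = 4.98e-06). Gadd45a was at 11.6 and 9.81 FPKM in 2i+LIF and at 51.0 and 48.2 FPKM in PD+LIF (4.64-fold, log2 fold change 2.12, limma adjusted p = 1.68e-05). In both genes the media were far apart relative to the spread within a group.

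Bcl2l11 was at 2.39 and 3.65 FPKM in 2i+LIF and at 10.1 and 9.81 FPKM in PD+LIF in the knockout, with a log2 fold change of 1.46 in each genotype. Ccng2 was at 1.72 and 2.48 against 7.87 and 7.13 FPKM (3.57-fold, log2 fold change 1.46, limma adjusted p = 0.000424). Txnip (2.22-fold, limma adjusted p = 0.000138) and Insr (1.93-fold, limma adjusted p = 0.000827) were also higher. Pdk4 was at 1.37 and 0.894 FPKM in 2i+LIF and at 1.17 and 1.30 FPKM in PD+LIF, so its groups overlapped in the knockout, and the log2 fold change was 0.07 (95% confidence interval -0.27 to 0.42, limma adjusted p = 0.705). The test of the difference between genotypes in this medium effect is the same as that of the knockout effect between media given above.

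Bcl6, at 1.53 and 1.73 FPKM in 2i+LIF and 0.872 and 1.12 FPKM in PD+LIF, was the gene that was lower in the knockout (61.3% of the 2i+LIF mean, log2 fold change -0.40, limma adjusted p = 0.0284). Its adjusted p was 0.0536 and 0.113 without replicates 1 and 2 of the knockout in 2i+LIF, and 0.127 without replicate 1 of the knockout in PD+LIF. Sesn3, at 5.89 and 7.81 against 9.48 and 9.70 FPKM, had a log2 fold change of 0.44 (limma adjusted p = 0.0528). That adjusted p was 0.0321 without replicate 2 of the knockout in 2i+LIF, and 0.0411 and 0.0406 without replicates 1 and 2 of wild type in PD+LIF. The knockout and medium comparisons share samples, so their values stand side by side and are not independent of each other.

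**Figure D4:**
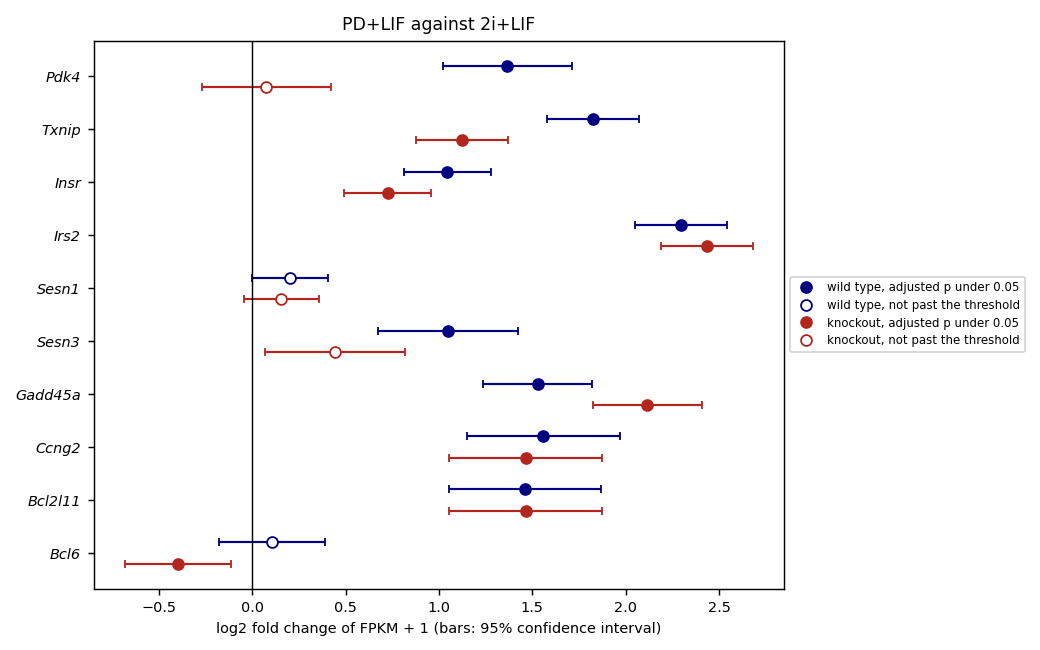
Log2 fold change of FPKM + 1 between PD+LIF and 2i+LIF for each FOXO target gene in wild-type (blue) and Trincr1-/- ESCs (red), with 95% confidence intervals. Filled points have a limma adjusted p under 0.05. Pdk4 has values of 1.36 in wild type and 0.07 in the knockout, Irs2 by 2.29 and 2.43, and Bcl2l11 by 1.46 in each.

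Most ESC markers were lower in PD+LIF than in 2i+LIF as well. Their sum ran in 2i+LIF from 3853 to 3972 FPKM for wild type and from 3697 to 3740 FPKM for the knockout, above the PD+LIF sums given earlier, and 8 of the 10 were lower in PD+LIF in each genotype, while Sox2 was higher in wild-type ESCs (146.5 and 179.0 FPKM, limma adjusted p = 0.00696). The neural marker sum was 6.82 to 7.81 FPKM in wild-type and 8.07 to 8.23 FPKM in knockout ESCs in 2i+LIF, and all 4 neural markers tested were higher in PD+LIF in each genotype. All 3 mesoderm markers tested were lower in each genotype, 2 of 4 fibroblast markers were higher in wild type and 3 of 4 in the knockout, and 1 of 2 endoderm markers was higher in wild type and 2 of 2 in the knockout. Over all genes tested, 30.9% were higher and 21.3% lower in PD+LIF in wild type, and 29.6% and 20.3% in the knockout. The part of the marker shifts in the medium effects was not tested.

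The factors and kinases that act on these genes were read from a list of 30 genes of insulin, PI3K, AKT and FOXO signalling, all tested. Foxo1 was at 4.11 ± 0.492 FPKM in 2i+LIF and 7.97 ± 0.000834 FPKM in PD+LIF in wild-type ESCs (SD, n = 2, log2 fold change 0.82, limma adjusted p = 0.000785). Foxo3 (7.53 to 16.8 FPKM, log2 fold change 1.06) and Foxo4 (13.7 to 22.0 FPKM, 0.65) were also higher in PD+LIF, and Foxo6 was not called (1.38 and 1.54 FPKM, limma adjusted p = 0.595). None of the 4 Foxo genes passed for the knockout in PD+LIF, with log2 fold changes of -0.14 (Foxo1), -0.11 (Foxo3), 0.12 (Foxo4) and -0.38 (Foxo6) and limma adjusted p-values of 0.183 to 0.457. FOXO activity is set mainly by phosphorylation and location, which RNA levels do not measure.

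Among the kinases, Akt1 had PD+LIF means of 31.2 FPKM without and 38.5 FPKM with the knockout (a log2 fold change of 0.30, limma adjusted p = 0.0457), and Sgk1 had means of 60.8 and 85.8 FPKM (0.49, limma adjusted p = 0.0047). Akt2 (0.07, limma adjusted p = 0.412) did not pass. Between media in wild-type ESCs, Akt1 (0.81) was higher and Akt2 (-0.28) and Sgk1 (-1.59) lower in PD+LIF, all with limma adjusted p-values under the threshold.

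**Figure D5:**
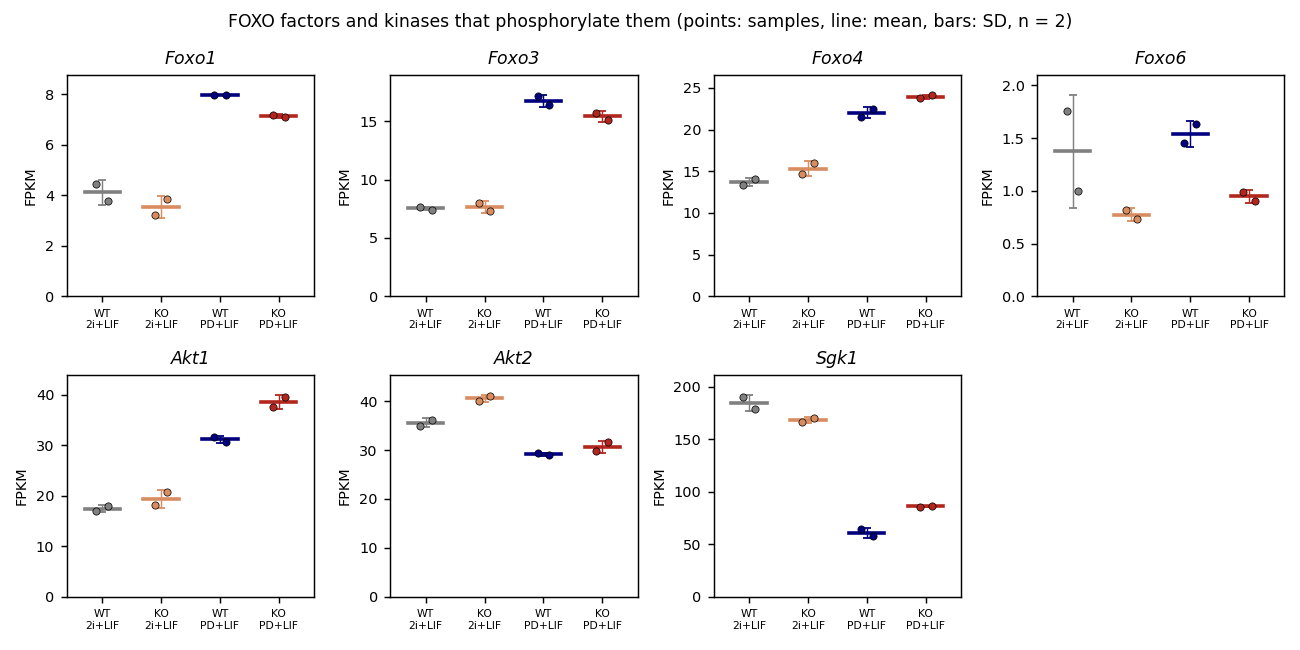
FPKM of the 4 Foxo genes, Akt1, Akt2 and Sgk1 in each of the 8 samples, as points with the mean (line) and SD (bars) of the 2 samples of each group, on axes from 0. Foxo1, Foxo3 and Foxo4 are higher in PD+LIF than in 2i+LIF in both genotypes, and Sgk1 is lower in PD+LIF and, within PD+LIF, higher in the knockout (85.8 against 60.8 FPKM).

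Of the 30 signalling genes, 4 were higher and 1 lower in the knockout in PD+LIF, and 0 were called in 2i+LIF in limma, where 6 had an unadjusted p under 0.05. Over all genes tested, the shares were 6.29% higher and 5.77% lower in PD+LIF, and 14.6% had an unadjusted p under 0.05 in 2i+LIF. Besides Akt1 and Sgk1, Igf2, a ligand of the IGF1 receptor, had means of 58.6 FPKM without and 191.4 FPKM with the knockout in PD+LIF (3.26-fold, log2 fold change 1.70, limma adjusted p = 0.00170), and Irs1, the paralog of Irs2, at 0.602 and 1.15 FPKM (0.42, limma adjusted p = 0.0499). Pik3cd, a catalytic subunit of PI3K, was lower (4.88 and 2.48 FPKM, -0.75, limma adjusted p = 0.0413). Its adjusted p, like those of Akt1 and Irs1, lay close to the threshold. The difference of the knockout effect between media passed for Igf2 (1.45, limma adjusted p = 0.0262) and Sgk1 (0.62, limma adjusted p = 0.0272), beside 1.81% of all genes tested. Whether the calls of this list hold under alternative settings was not examined here. In PD+LIF against 2i+LIF, 17 were higher and 5 lower in wild-type ESCs, and 12 and 5 in the knockout, beside 30.9% and 21.3% of all genes tested in wild type and 29.6% and 20.3% in the knockout.

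A list of 32 further FOXO targets had 24 genes tested. In PD+LIF, 2 were higher and 4 lower in the knockout, with a median log2 fold change of -0.08, against 0.01 for all genes tested, of which 6.29% were higher and 5.77% lower. Cited2, a regulator of CBP and p300, was at 27.8 and 53.7 FPKM in wild-type and knockout ESCs (1.93-fold, log2 fold change 0.93, limma adjusted p = 0.00127), and Dapk1, a death-associated kinase, was higher too (0.43, limma adjusted p = 0.0359). Klf2, a pluripotency factor as well as a FOXO target (-0.48, limma adjusted p = 0.0102), the autophagy genes Gabarapl1 (-0.43, 0.0208) and Ulk1 (-0.42, 0.00848), and Sod2, the mitochondrial superoxide dismutase (-0.37, 0.0209), were lower.

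In 2i+LIF 0 of the 24 were called in limma, with 6 at an unadjusted p under 0.05, beside 14.6% of all genes tested. The difference between media passed for Cited2 (1.22, limma adjusted p = 0.00608) and Ulk1 (-0.62, limma adjusted p = 0.0280), beside 1.81% of all genes tested. For this list too, calls under alternative settings were not examined. In PD+LIF against 2i+LIF, 16 of the 24 were higher and 2 lower in wild-type ESCs, and 13 and 6 in the knockout, with medians of 0.47 and 0.36, against 0.08 and 0.07 for all genes tested. The shares over all genes were 30.9% and 21.3% in wild type and 29.6% and 20.3% in the knockout.

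Close paralogs and partners of the 10 genes formed the last list, with 27 of 29 genes tested. In PD+LIF 2 were higher and 2 lower in the knockout, beside 6.29% and 5.77% of all genes tested. Bcl2l1, the survival protein that BIM binds, was higher (28.5 and 40.5 FPKM, log2 fold change 0.49, limma adjusted p = 0.00353), as was Irs1, and Mcl1, another BIM partner, was lower (82.0 and 67.3 FPKM, -0.28, limma adjusted p = 0.00848). Pdk1, a kinase of the same family as Pdk4, was lower in the knockout in PD+LIF (31.0 and 20.1 FPKM, -0.60, limma adjusted p = 0.0267) and also in 2i+LIF (37.8 and 21.5 FPKM, -0.78, limma adjusted p = 0.0393), where it was the only gene of the list called. Over all genes tested, 1.21% were called for the knockout in 2i+LIF. The difference of the knockout effect between media passed for Bcl2l1 (0.52, limma adjusted p = 0.0280), beside 1.81% of all genes tested. As for the other lists, calls under alternative settings were not examined. In PD+LIF against 2i+LIF, 12 of the 27 were higher and 4 lower in wild-type ESCs, and 13 and 5 in the knockout. Over all genes tested, these shares were 30.9% and 21.3% in wild type and 29.6% and 20.3% in the knockout.

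Levels on the log2(FPKM + 1) scale were correlated with those of Pdk4 over the 8 samples, among 12062 genes with a mean of at least 1 FPKM. The closest were 2700049A03Rik (Pearson r = 0.989), Pld3 (0.984) and BC052040 (0.984). 2700049A03Rik had group means of 6.74 and 7.34 FPKM in wild-type and knockout ESCs in 2i+LIF and of 12.0 and 8.22 FPKM in PD+LIF, so, as for Pdk4, wild type in PD+LIF stood above the other groups. These correlations describe 8 points in 4 groups, and each gene was picked as the highest of many.

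In the second experiment of the series, RNA was pulled down with FLAG-tagged TRIM71, an RNA-binding protein that associates with Trincr1. The ESCs, in 2i+LIF, overexpressed this tagged protein and were UV-crosslinked. The authors deposited 1 value per transcript for the immunoprecipitate (IP) and 1 for the input, with no replicates to test. All 10 genes were listed. Txnip was the single one with a value above 0 in the IP, at 57.1 scaled FPKM against 161.7 FPKM in the input, a ratio of 0.353. The other 9 were listed at 0 in the IP, with inputs from 0.5 FPKM (Bcl6) to 21.1 FPKM (Gadd45a). A value of 0 was common at such inputs, being listed for 88.0% of the 3074 transcripts with an input of 0.4 to 2 FPKM, 66.5% of the 4346 transcripts with an input of 2 to 10 FPKM and 41.8% of the 2827 with one of 10 to 30 FPKM. At an input of 100 to 300 FPKM, where Txnip lay, it was listed for only 8.38% of 573 transcripts. A value above 0 was thus usual at the input of Txnip. Trincr1, by the same ratio, was at 69.7, and 5.1% of the 9651 transcripts with an input above 2 FPKM had a ratio above 3. Beside the wild-type RNA-seq means in 2i+LIF, input was higher for some of the 10 genes and lower for others. Txnip was at 161.7 against 31.7 FPKM and Pdk4 at 3.1 against 0.756 FPKM, while Bcl2l11 was at 1.2 against 2.90 FPKM. These are separate libraries of different cells, and the gap was not tested.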

How the data were processed

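Poly(A) RNA-seq of 8 samples in 4 groups of 2 was used. The authors aligned reads with STAR 2.5.0 and deposited 1 normalized FPKM value from Cufflinks 2.2.1 per gene and sample. The methods name mm9, but gene coordinates in the table fit GRCm38 (97.5% of 19938 protein-coding genes had a start or end within 1000 bases), and GRCm38 is used here. Starts in the table count from 0, and 1 was added. Whether counting used strand is not given in the sources used here. For TRIM71 the authors deposited FPKM of IP and input, rounded to 1 decimal, and a scaled pair of columns. These scaled signal values were deposited by the authors as FPKM normalized to the mean of each dataset. Input RNA was poly(A) selected while IP RNA was not, per the labels, so the ratio also compares library preparations. The deposited fold of enrichment is the authors' own comparison and was not used. Depth of these libraries is unknown, and the IP from empty cells was not analysed here.

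Of 41260 entries, 1 per gene identifier was kept, and 27 symbols turned into numbers were restored from identifiers. Values of log2(FPKM + 1) were fitted with limma 3.58.1 in R 4.3.3 (all 4 groups, variance trend, 4 residual degrees of freedom), for genes with a mean above 0.2 FPKM, and p-values were adjusted by Benjamini-Hochberg over 15430 genes with a threshold of 0.05. A pseudocount of 1 understates changes of low genes. FPKM sums were 497115 to 519651, and no scaling was applied in the main fit. Median-of-ratios factors, used only as an alternative, differed by medium. They were 0.976 to 0.981 in the 2i+LIF samples and 1.03 to 1.05 in the PD+LIF samples. The method was tested on simulated data. Sequences came from RefSeq. Python 3.11.15 handled tables.

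All 10 members are named, list genes where they passed for the knockout (at most 6 a list) with the Foxo genes, Akt1 and Akt2, and 3 genes most like Pdk4. A gene of the signalling list is not reported here. The members and lists were chosen with earlier results of these data known. Alternatives for the pseudocount, filter, scaling, variance model, samples and replicate block are given in the closing section. They cover the 10 FOXO target genes and counts over all genes, not single genes of the lists. Replicate numbers did not pair the samples (correlations of replicate differences between groups from -0.0539 to 0.00634).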

Additional observations from a re-analysis of the deposited data

Results flagged for a closer look

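The knockout effect on Pdk4 differed between media by -1.29 on the log2(FPKM + 1) scale (limma adjusted p = 0.0368), and was noted because the difference itself passed the test. Both knockout samples were lower than both wild-type samples in PD+LIF. In 2i+LIF they were narrowly higher, without passing (limma adjusted p = 0.459). The closest samples there were 0.894 FPKM in the knockout and 0.856 FPKM in wild type, at an estimated 29.9 and 33.9 fragments. The gene was low, at an estimated 26.0 to 155 fragments per sample. Groups of 2 samples are too small for a test of single outlying samples.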

How the results depend on the processing

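For the knockout effect in PD+LIF, 1861 genes and 4 of the 10 FOXO target genes were called, against 316 genes and 1 FOXO target gene (Pdk4) when only the 4 samples compared were fitted. Leaving out 1 sample at a time gave 335 to 1519 genes and 1 to 4 FOXO target genes. In 2i+LIF, 186 genes were called, against 122 without a filter on low values, 111 with the replicate block, 0 with only the 4 samples compared and 40 to 113 when 1 sample was left out, and 0 FOXO target genes were called in all of these. For the difference between media, 279 genes were called, against 138 without a filter, 88 without a variance trend, 39 with the replicate block and 3 to 34 when 1 sample was left out. Pdk4 lost its call there with a pseudocount of 0.1, without a filter, without a variance trend, with the replicate block (adjusted p = 0.0778) and in each fit without 1 sample, so that 0 of the 10 were then called, and kept it with median-of-ratios scaling and with a mean above 1 FPKM. The adjusted p of Pdk4 ranged from 0.0310 to 0.131 over these alternatives. Counts for the medium effects stayed within 1.5 times. The replicate block changed no other call of a FOXO target gene. The cause of these losses was not tested, but the fits with fewer samples also have fewer degrees of freedom.

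Values near 0 changed sign. With a pseudocount of 0.1 the difference between media became -0.0014 for Bcl2l11 and -0.015 for Irs2. With 1 sample left out, the knockout effect in PD+LIF ranged from -0.032 to 0.11 for Bcl2l11, -0.090 to 0.036 for Ccng2 and -0.068 to 0.037 for Sesn1. In 2i+LIF it ranged from -0.19 to 0.27 for Bcl2l11, -0.14 to 0.27 for Ccng2 and -0.0065 to 0.071 for Sesn1. The difference between media ranged from -0.23 to 0.23 for Bcl2l11, -0.30 to 0.11 for Ccng2 and -0.10 to 0.0047 for Sesn1, and the medium effect in the knockout from -0.087 to 0.24 for Pdk4. Of the values of single FOXO target genes under an alternative, 690 kept direction and side of the threshold, 27 lost the call, 4 gained it and 19 changed sign. The ratio of IP to input of Txnip was 0.157 on the unscaled columns. Depth limits Pdk4 and Bcl6 most.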
